A study of Arabidopsis thaliana with 16 samples.

Results

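Translation initiation and elongation factors were followed as messenger RNA in whole germinating seeds of Arabidopsis thaliana, 71 genes of the 27655 in the deposited count table. The genes were taken by the wording of their descriptions, which had to hold "translation initiation factor", "elongation factor 1" or "elongation factor 2" and not "transcription", with plastid-encoded genes left out. The wording rule uses no measured value, though it was set with earlier results of these data known. Of the 71 genes, 64 had enough counts to be tested and 7 did not. For 2 of the tested genes the wording is weak ground: AT4G23330 is in only through a note on its best protein match, and AT2G31920 is described as a protein of unknown function.

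The study compared 4 groups of wild-type Col-0 seeds with 4 libraries each, called biological replicates in the labels. Seeds were imbibed for 3 days at 4 °C, kept in constant light at 22 °C and moved to liquid medium 24 hours after imbibition. For 6 hours they received 5 µM abscisic acid (ABA) together with 60 mM glucose, 5 µM ABA alone, 60 mM glucose alone, or, in the control group, nothing that the labels name. All were harvested at 30 hours. The labels name no osmotic control for glucose, and they do not say whether replicates came from separate seed batches, so p-values measure the spread between these libraries.

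Initiation factors bring the initiator tRNA, the small ribosomal subunit and the capped messenger together at a start codon, and elongation factors then drive the ribosome along the coding sequence. A dry seed holds stored messengers and ribosomes, and protein synthesis resumes soon after water uptake. ABA is the hormone that holds a seed back from germinating, while glucose is both a carbon source and a signal in seeds. In plants many genes for ribosomal proteins and translation factors carry the telo box and site II elements upstream of their start, and many ABA-responsive genes carry the ACGTG core of the ABA-responsive element.

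The upstream regions of 5 genes, picked after their values were seen, show how these elements were placed in them. Each line gives the 250 bases before the annotated RefSeq gene start, read on the gene's strand in the TAIR10.1 assembly, with capitals at every match on either strand to AAACCCTA (telo box), to TGGGCC or TGGGCT (site II) or to ACGTG. ELF5A-3 lies at chr1:26088780-26089029 on the plus strand, ELF5A-2 at chr1:9205550-9205799 on the plus strand, AT1G71350 at chr1:26891285-26891534 on the minus strand, EIF3G2 at chr5:1807861-1808110 on the plus strand and LOS1 at chr1:20971743-20971992 on the minus strand.
ELF5A-3: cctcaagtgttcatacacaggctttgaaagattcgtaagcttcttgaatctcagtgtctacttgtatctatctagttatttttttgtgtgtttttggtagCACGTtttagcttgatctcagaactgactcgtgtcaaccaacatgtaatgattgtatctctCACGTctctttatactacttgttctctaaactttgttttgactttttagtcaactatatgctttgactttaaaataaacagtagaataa
ELF5A-2: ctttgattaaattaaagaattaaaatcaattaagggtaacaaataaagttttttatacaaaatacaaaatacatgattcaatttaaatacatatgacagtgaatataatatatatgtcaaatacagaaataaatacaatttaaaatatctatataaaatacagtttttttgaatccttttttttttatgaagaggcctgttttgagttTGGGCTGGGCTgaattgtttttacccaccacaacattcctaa
AT1G71350: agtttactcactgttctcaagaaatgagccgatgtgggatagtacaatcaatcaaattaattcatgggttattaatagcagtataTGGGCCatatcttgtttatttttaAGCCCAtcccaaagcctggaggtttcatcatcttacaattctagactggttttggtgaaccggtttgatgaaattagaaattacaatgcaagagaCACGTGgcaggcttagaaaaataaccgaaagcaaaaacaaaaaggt
EIF3G2: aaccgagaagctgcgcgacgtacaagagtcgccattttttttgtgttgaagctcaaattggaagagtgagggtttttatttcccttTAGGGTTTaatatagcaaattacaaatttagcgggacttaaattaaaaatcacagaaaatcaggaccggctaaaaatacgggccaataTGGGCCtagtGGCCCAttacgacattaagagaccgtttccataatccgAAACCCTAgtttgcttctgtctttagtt
LOS1: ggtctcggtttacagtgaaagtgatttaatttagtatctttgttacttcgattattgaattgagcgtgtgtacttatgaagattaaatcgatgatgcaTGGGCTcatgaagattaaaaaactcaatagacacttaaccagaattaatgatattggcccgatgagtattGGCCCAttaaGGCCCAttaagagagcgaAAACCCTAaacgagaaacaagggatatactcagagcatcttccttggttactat

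The window of ELF5A-3 holds 2 ACGTG cores, starting 150 and 89 bases before the annotated start, and none of the other elements. Its far more abundant paralogue ELF5A-2 holds 2 overlapping site II elements and no ACGTG. In AT1G71350 a single palindrome, CACGTG, is read as a core on both strands, and it stands beside 2 site II elements. EIF3G2 holds 2 telo boxes and 2 site II elements, and LOS1 holds 1 telo box and 3 site II elements. Over windows of 300 bases, from 250 before to 50 after the start, a telo box was found in 18.3% of the 71 factor genes and in 6.22% of the 27443 protein-coding genes with a window. A site II element was found in 47.9% of the factor genes and in 21.7% of the protein-coding genes. Both elements together were found in 12.7% of the factor genes and in 2.20% of the protein-coding genes. The 206 cytosolic ribosomal protein genes held them more often than the factor genes. Their shares were 49.5% for a telo box, 73.8% for a site II element and 39.3% for both. The ACGTG core was found in 18.3% of the factor genes and in 26.7% of the protein-coding genes. Matches are letters in a window, and no binding was measured. The windows of most called factors are not shown, and a link between these elements and the changes was not tested.

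Library totals ran from 11316409 to 14809626 counts in ABA plus glucose, 9360552 to 17794702 in ABA, 9698419 to 12793206 in glucose and 9432451 to 13532720 in control libraries. Of 6 seed markers 3, the storage genes CRA1, CRU3 and OLEO1, were called higher with ABA and with ABA plus glucose, and with glucose CRA1 was called higher and CRU3 and OLEO1 lower. CRA1, for a cruciferin, lay at 1250 to 1325 CPM (counts scaled to library size) in ABA plus glucose, 1573 to 1894 in ABA, 128 to 162 in glucose and 102 to 112 in control libraries. The germination gene ICL, for isocitrate lyase, made up most of the sum of the 6, at 22583 to 25610 CPM in the 16 libraries. The 6 summed to 28652 to 29499 CPM in ABA plus glucose, 28209 to 30769 in ABA, 27264 to 28976 in glucose and 26713 to 28397 in control libraries. The ABA-responsive gene RD29A lay at 224 to 255 CPM in ABA and 1.80 to 3.43 CPM in control libraries. In ABA plus glucose libraries it lay at 109 to 141 CPM. All 4 ABA markers, RD29A, RAB18, EM1 and LEA4-5, were called higher with ABA plus glucose than in control. Each was called lower with ABA plus glucose than with ABA, at log2 changes from -1.74 (RAB18) to -0.91 (EM1). The glucose marker GPT2 averaged 85.2 CPM in glucose, 21.4 in ABA plus glucose, 9.49 in ABA and 18.7 in control seeds. GPT2 was not called with ABA plus glucose against control. Of 3 endosperm markers 1, MAN7, rose in each treatment against control, to 104 to 128 CPM in ABA against 36.4 to 42.9 CPM in control libraries. The 3 endosperm markers summed to 271 to 427 CPM in ABA plus glucose, 326 to 785 in ABA, 278 to 362 in glucose and 184 to 297 in control libraries, and the part of the seed and endosperm markers in the results was not tested. In whole seeds fewer cells of a type and less RNA per cell cannot be told apart. ABA replicate 3 stood apart from the other ABA libraries on the second principal component of log2 CPM, at -27.2 against -5.16 to 3.44, and on the third, at -33.3 against 7.06 to 10.9. The main results that rest on it are given with and without it. Control replicate 1 lay at -25.3 on the second component, against -13.9 to -8.17 in the other control libraries.

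Most translation factor transcripts moved little under any treatment. With ABA 5 of the 64 tested factors were called higher and 7 lower at an adjusted p under 0.05 in edgeR's quasi-likelihood test against control, 18.8% of them, where 34.1% of all 17083 genes tested were called (16.1% higher and 18% lower). With upper-quartile scaling in place of TMM the split was 3 higher and 11 lower. With ABA plus glucose 5 were called higher and 2 lower, 10.9% against 25.3% of all genes (11.2% higher and 14.1% lower), and with upper-quartile scaling 3 and 5. With glucose 3 were called higher and 1 lower, 6.25% against 11.3% (3.85% higher and 7.49% lower). In all 6 comparisons together 15 factors were called at least once and 49 never.

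The changes of called factors were also small. The largest, in ELF5A-3 with ABA plus glucose, was 0.67 on the log2 scale, so that no called factor changed 2-fold. Of all genes 4.59% were called and changed at least 2-fold with ABA plus glucose, 6.03% with ABA and 0.866% with glucose. The median size of the log2 change over the tested factors, whatever its sign, was 0.08 with ABA plus glucose against 0.16 over all genes, 0.07 with ABA against 0.19, and 0.08 with glucose against 0.13. For 59, 56 and 59 of the 64 tested factors the 95% interval of the log2 change lay within 0.5 of 0 with ABA plus glucose, with ABA and with glucose, 92.2%, 87.5% and 92.2%. The same held for 64.3%, 59.0% and 70.3% of all genes. The tested factors are abundant, with a median of 140 CPM against 18.7 CPM over all genes tested, and the part this plays in the small spread was not tested.

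**Figure D1:**
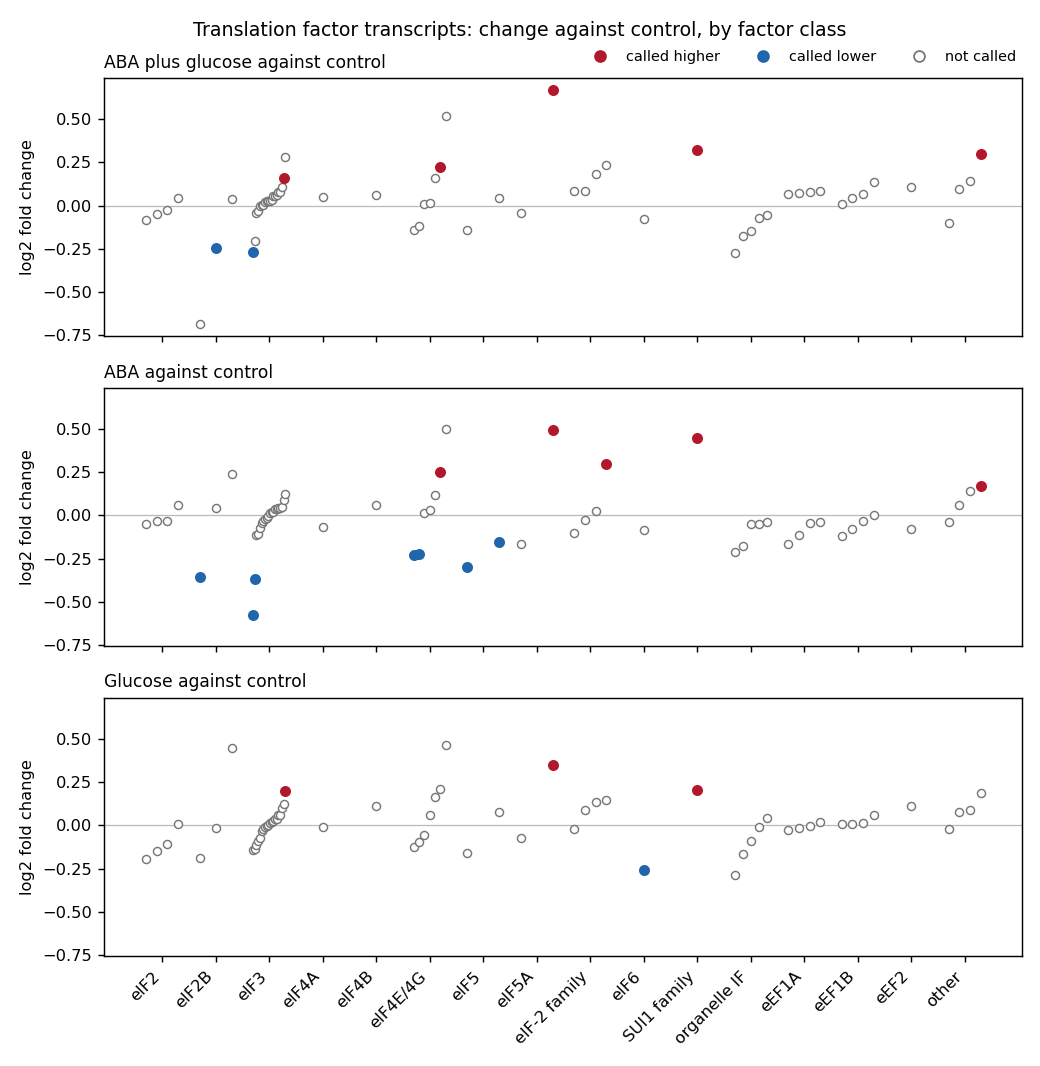
The log2 fold change of each of the 64 tested translation factors against control (y axis), by factor class (x axis), in ABA plus glucose, ABA and glucose seeds; filled points passed an adjusted p under 0.05. With ABA 5 factors lie among the called rises and 7 among the called falls, spread over 8 classes, while no eEF1A, eEF1B, eEF2, eIF2 or organelle factor is filled in any panel.

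Initiation begins with eIF2, the trimeric protein that carries the initiator tRNA and is the target of the kinase GCN2. None of its 4 tested subunit genes was called by edgeR in any comparison, and their log2 changes with ABA ran from -0.05 to 0.06. By unadjusted p under 0.05 there were 2 with glucose against control and 1 with ABA plus glucose against glucose, and DESeq2 called the last of these, EIF2B (AT5G20920), an eIF2 subunit gene despite its symbol. EIF2 GAMMA (AT1G04170), the most abundant of the class by CPM, had 262, 258, 279 and 261 CPM in ABA plus glucose seeds, 258, 273, 243 and 272 CPM in ABA seeds, 252, 245, 250 and 256 CPM in glucose seeds, and 272, 270, 272 and 266 CPM in control seeds. Every glucose library lay below every ABA plus glucose and every control library, and the other groups overlapped. The difference of -0.11 between glucose and control did not pass the test.

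The exchange factor eIF2B reloads eIF2 with GTP after each round. AT1G53880, annotated to the eIF2B family, had 26.9, 24.5, 26.8 and 28.5 CPM in ABA plus glucose seeds, 23.5, 25.5, 25.4 and 24.6 CPM in ABA seeds, 27.3, 28.6, 29.2 and 25.9 CPM in glucose seeds, and 30.2, 29.2, 31.7 and 36.0 CPM in control seeds. Every library with ABA and every glucose library lay below every control library. The margin for glucose was narrow, with glucose replicate 3 at 29.15 CPM and control replicate 2 at 29.24 CPM. The gene fell with ABA by 0.36 on the log2 scale (95% interval -0.51 to -0.20, adjusted p = 0.000664, edgeR) and with ABA plus glucose by 0.25 (-0.40 to -0.09, adjusted p = 0.0167, edgeR). With glucose it was not called. Its neighbour AT1G53900 is identical to it over 1356 bases, so the counts of each are uncertain. With the pair summed the log2 change was -0.31 with ABA (adjusted p = 0.00300, edgeR) and -0.25 with ABA plus glucose. AT1G53900 itself averaged 1.16 CPM, and its interval with ABA ran from -0.52 to 1.00. The call of AT1G53880 with ABA plus glucose was lost without ABA plus glucose replicate 2 or without control replicate 4.

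Start-codon selection rests on eIF1, whose SUI1 domain AT1G71350 shares, and on eIF5, which makes eIF2 hydrolyse its GTP. AT1G71350 (chr1:26888368-26891284) had 56.1, 53.6, 54.3 and 55.2 CPM in ABA plus glucose seeds, 62.3, 60.7, 58.2 and 58.1 CPM in ABA seeds, 49.2, 49.7, 54.1 and 49.3 CPM in glucose seeds, and 42.1, 44.9, 46.8 and 41.2 CPM in control seeds. The ABA libraries lay above all others, the control libraries below all others, and the ABA plus glucose libraries in between, overlapping the glucose libraries. It rose with ABA by 0.45 (0.33 to 0.57, adjusted p = 2.86e-06, edgeR), with ABA plus glucose by 0.32 (0.20 to 0.45, adjusted p = 0.000276, edgeR) and with glucose by 0.21 (0.08 to 0.33, adjusted p = 0.0289, edgeR). The glucose call was lost with length and GC offsets in the fit, without glucose replicate 2 or 3 and without control replicate 1 or 4.

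The eIF5 genes moved the other way with ABA. AT1G77840 (eIF5-2) had 111, 113, 112 and 112 CPM in ABA plus glucose seeds, 101, 94.1, 108 and 98.8 CPM in ABA seeds, 105, 110, 107 and 120 CPM in glucose seeds, and 134, 114, 123 and 122 CPM in control seeds. Every ABA library lay below every control library. It fell with ABA by 0.30 (-0.42 to -0.17, adjusted p = 0.000588, edgeR). AT1G36730 (eIF5-1) had 177, 172, 180 and 172 CPM in ABA plus glucose seeds, 150, 162, 142 and 157 CPM in ABA seeds, 179, 178, 179 and 181 CPM in glucose seeds, and 174, 168, 167 and 169 CPM in control seeds. Its ABA libraries were the lowest 4 of the 16. The fall with ABA was 0.15 (adjusted p = 0.0296, edgeR), and it was called in 12 of 22 alternative fits. The call was lost without ABA replicate 1, 3 or 4 or without control replicate 1, 2 or 4, and without ABA replicate 3 the change was -0.12 (adjusted p = 0.0525, edgeR). AT1G73180, annotated as eIF2A, a factor outside the eIF2 trimer, averaged 119 ± 10 CPM in ABA and 105 ± 5.0 CPM in control seeds (SD, n = 4 each). It was called higher with ABA at 0.17 (adjusted p = 0.0387, edgeR) and in 14 of 22 alternative fits. The call was lost without ABA replicate 2 or 3 or without control replicate 1 or 4, and without ABA replicate 3 the change was 0.11 (adjusted p = 0.112, edgeR).

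The large complex eIF3, which holds the small subunit ready for the messenger, is encoded by 21 genes of the table for subunits a to m. Of the 20 tested, 17 were never called, and with ABA their log2 changes ran from -0.11 to 0.13. Per length, as the deposited signal gives it, the genes of eIF3j summed to group means of 180.4 to 188 and the single gene of eIF3e to 357 to 373, and all 13 subunits lay within those bounds in every group. The 3 called genes were the minor members of subunit pairs. EIF3G2 (AT5G06000), one of the pair for subunit g, had 8.01, 10.3, 10.7 and 8.16 CPM in ABA plus glucose seeds, 6.91, 8.57, 5.52 and 7.68 CPM in ABA seeds, 10.3, 9.88, 9.36 and 9.61 CPM in glucose seeds, and 11.1, 11.4, 9.25 and 11.5 CPM in control seeds. Every ABA library lay below every glucose and control library, and the ABA plus glucose libraries overlapped all 3 other groups. EIF3G2 fell with ABA by 0.58 (-0.84 to -0.32, adjusted p = 0.000996, edgeR), the largest called fall among the factors in the 6 comparisons. Its annotated span overlaps AT5G01135 and AT5G01145 on the same strand, so its counts are uncertain to that extent. It supplied 2.47% to 4.00% of the length-scaled signal of the pair in ABA libraries and 4.29% to 5.81% in control libraries. Its partner EIF3G1, at 271 to 286 CPM in ABA and 243 to 314 CPM in control libraries, had a log2 change of 0.02.

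AT1G66070, one of 2 genes for the loosely bound subunit eIF3j, had 46.6, 50.3, 48.0 and 45.5 CPM in ABA plus glucose seeds, 46.0, 43.9, 41.4 and 46.6 CPM in ABA seeds, 53.7, 54.0, 55.4 and 55.4 CPM in glucose seeds, and 60.0, 58.8, 56.1 and 54.6 CPM in control seeds. The 8 libraries with ABA all lay below the 8 without it. It fell with ABA by 0.37 (-0.49 to -0.24, adjusted p = 3.98e-05, edgeR) and with ABA plus glucose by 0.27 (adjusted p = 0.00136, edgeR), and it was also lower with ABA plus glucose than with glucose, a log2 difference of -0.20 (adjusted p = 0.0289, edgeR). Its share of the eIF3j signal per length was 23.1% to 24.2% in ABA and 28.7% to 32.2% in control libraries. The other gene, AT5G37475, had a log2 change of 0.13 with ABA that did not pass the test. EIF3B-2 (AT5G25780) had 176, 176, 179 and 172 CPM in ABA plus glucose seeds, 162, 154, 164 and 167 CPM in ABA seeds, 169, 181, 186 and 185 CPM in glucose seeds, and 164, 158, 150 and 157 CPM in control seeds. Every glucose and ABA plus glucose library lay above every control library. It was called higher with glucose at 0.20 (adjusted p = 0.0181, edgeR) and with ABA plus glucose at 0.16 (adjusted p = 0.0292, edgeR). These calls held in 17 and 14 of 21 alternative fits. The glucose call was lost without glucose replicate 3 or 4 or control replicate 3, and the other without ABA plus glucose replicate 1 or 3 or control replicate 2, 3 or 4. It matches TIF3B1 at 93.3% over 2256 bases, and with the pair summed the log2 changes were 0.08 with glucose (adjusted p = 0.327, edgeR) and 0.07 with ABA plus glucose, neither called.

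**Figure D2:**
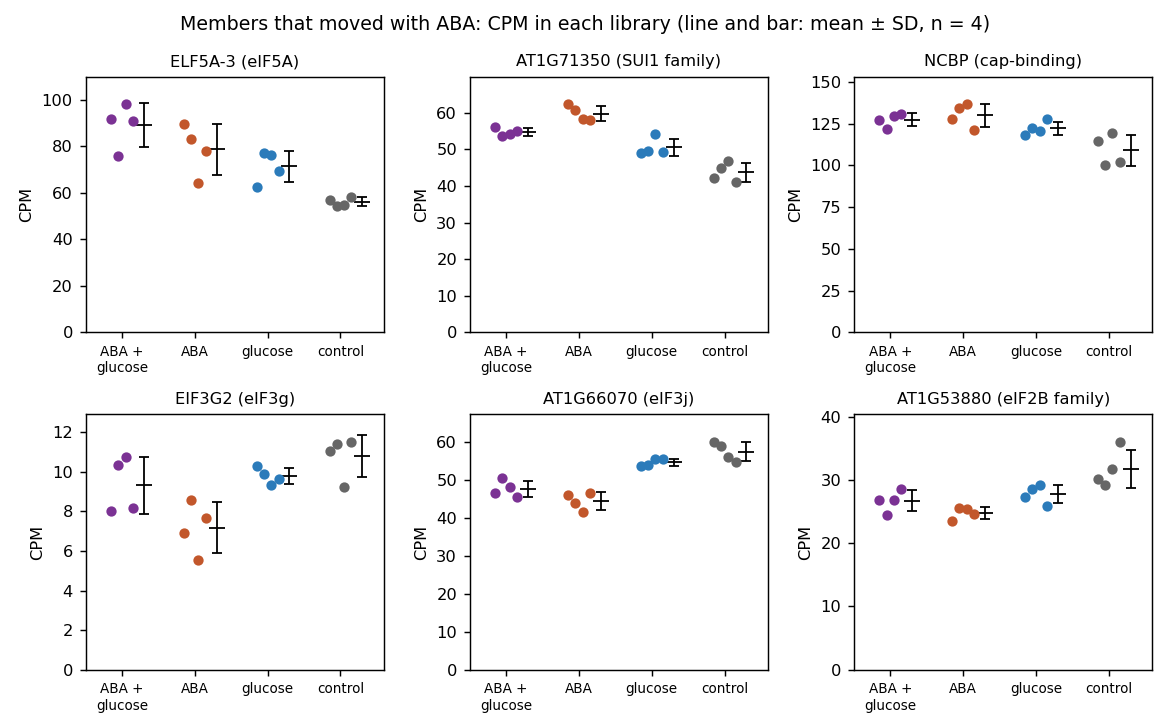
CPM (y axis, from 0) of 6 factors in each library of the 4 groups; points are libraries, and the line and bar give the mean and SD of 4. ELF5A-3, AT1G71350 and NCBP lie higher, and EIF3G2, AT1G66070 and AT1G53880 lower, in ABA than in control libraries, with no overlap between these groups.

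The cap of the messenger is bound by the eIF4E family, and eIF4G joins it to the helicase eIF4A. The cap-binding genes went in opposite directions with ABA. NCBP (AT5G18110), a cap-binding protein of this family, had 127, 122, 130 and 131 CPM in ABA plus glucose seeds, 128, 135, 137 and 121 CPM in ABA seeds, 118, 123, 121 and 128 CPM in glucose seeds, and 115, 100, 119 and 102 CPM in control seeds. All libraries with ABA lay above all control libraries. It rose with ABA by 0.25 (0.12 to 0.38, adjusted p = 0.00317, edgeR) and with ABA plus glucose by 0.22 (adjusted p = 0.0103, edgeR), a call lost without control replicate 2 (adjusted p = 0.0504). NCBP overlaps AT5G18100 on the opposite strand, and the use of strand in counting is not given in the sources used here, so reads of the 2 cannot be told apart.

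EIF4E1 (AT4G18040), the classical cap-binding protein, had 87.0, 81.0, 88.7 and 87.6 CPM in ABA plus glucose seeds, 85.8, 75.3, 82.8 and 81.2 CPM in ABA seeds, 88.5, 96.0, 93.0 and 87.5 CPM in glucose seeds, and 101, 95, 93.3 and 90.6 CPM in control seeds. It fell with ABA by 0.22 (-0.35 to -0.10, adjusted p = 0.00500, edgeR), and each ABA library lay below each control library. NCBP made up 54.0% to 58.6% of the length-scaled signal of NCBP and the 3 EIF4E genes in ABA libraries and 45.7% to 51.0% in control libraries. These are the cap-binding genes that the wording took, so the shares do not cover all cap-binding transcripts. EIF(ISO)4G2 (AT2G24050), a scaffold of the plant-specific isoform of the cap complex, had 107, 113, 118 and 119 CPM in ABA plus glucose seeds, 103, 105, 103 and 112 CPM in ABA seeds, 120, 115, 110 and 109 CPM in glucose seeds, and 124, 127, 121 and 123 CPM in control seeds. The control libraries were the highest 4 of the 16. Its fall with ABA was 0.23 (-0.34 to -0.11, adjusted p = 0.00275, edgeR).

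The other cap-complex factors did not pass the test. EIF(ISO)4G1, the more abundant scaffold gene of the isoform, had a log2 change of 0.03 with ABA, and 0.14 without ABA replicate 3 (adjusted p = 0.0635, edgeR). The helicase gene EIF4A1 had 1228, 1213, 1215 and 1281 CPM in ABA plus glucose seeds, 1179, 1265, 881 and 1217 CPM in ABA seeds, 1208, 1180, 1209 and 1135 CPM in glucose seeds, and 1063, 1201, 1227 and 1276 CPM in control seeds. Every ABA plus glucose library lay above every glucose library, the other groups overlapped, and ABA replicate 3 was the lowest library of the 16. EIF4B1, for the helicase's helper eIF4B, changed by 0.06 with ABA (-0.14 to 0.26). EIF4E2 and EIF4E3, further eIF4E genes, reached at most 5.43 CPM in any library.

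Among the factors that act at subunit joining and after it, the eIF5A family held the largest change. eIF5A carries the modified lysine hypusine and helps the ribosome form difficult peptide bonds. ELF5A-3 (AT1G69410, chr1:26089030-26090734) had 91.5, 75.9, 97.9 and 90.8 CPM in ABA plus glucose seeds, 89.4, 83.1, 64.1 and 77.9 CPM in ABA seeds, 62.7, 77.2, 76.2 and 69.2 CPM in glucose seeds, and 57.0, 54.2, 54.9 and 58.3 CPM in control seeds. All 12 treated libraries lay above all 4 control libraries, and the 3 treated groups overlapped each other. ABA and glucose libraries overlapped only through ABA replicate 3, at 64.1 CPM. Against control ELF5A-3 rose with ABA plus glucose by 0.67 (0.48 to 0.86, adjusted p = 6.57e-06, edgeR), with ABA by 0.49 (0.30 to 0.68, adjusted p = 0.000213, edgeR) and with glucose by 0.35 (0.15 to 0.54, adjusted p = 0.0173, edgeR). It was also higher with ABA plus glucose than with glucose, by 0.32 (adjusted p = 0.0209, edgeR), and the difference of 0.17 from ABA did not pass the test. The glucose call was lost without glucose replicate 2 or 3. Without ABA replicate 3 the rise of ELF5A-3 with ABA was 0.58 (0.41 to 0.74, adjusted p = 2.11e-06, edgeR). ELF5A-3 overlaps AT1G69400 on the same strand and ELF5A-2 overlaps AT1G26640 on the opposite strand, and how shared reads were divided is not given in the sources used here.

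ELF5A-3 remained a small part of the family. Per length it supplied 3.06% to 3.52% of the eIF5A signal in ABA plus glucose, 3.13% to 3.50% in ABA, 2.44% to 3.01% in glucose and 2.02% to 2.25% in control libraries. ELF5A-2, the main gene and the second most abundant factor per length, had 1802, 1694, 1896 and 1774 CPM in ABA plus glucose seeds, 1751, 1815, 1361 and 1639 CPM in ABA seeds, 1775, 1766, 1793 and 1689 CPM in glucose seeds, and 1958, 1756, 1859 and 1802 CPM in control seeds. Its groups overlapped, and the change of -0.17 with ABA did not pass the test (adjusted p = 0.0683, edgeR). Without ABA replicate 3 the change was -0.09 (adjusted p = 0.177, edgeR). ELF5A-1, the third gene, lay between 0.202 and 0.845 CPM and was not tested.

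**Figure D3:**
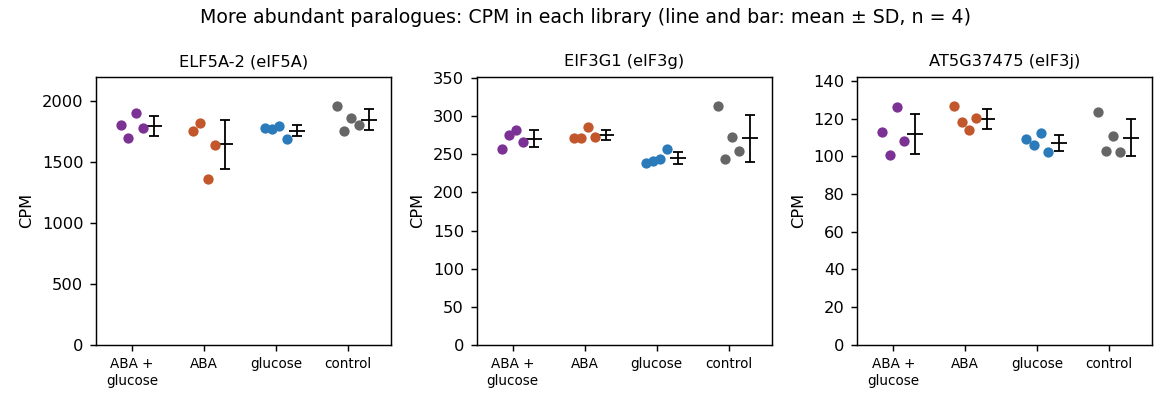
CPM (y axis, from 0) of the more abundant paralogues ELF5A-2, EIF3G1 and AT5G37475 in each library; points are libraries, and the line and bar give the mean and SD of 4. None of the 3 was called with ABA against control, and ABA replicate 3 is the lowest ELF5A-2 library, at 1361 CPM.

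eIF6 keeps free large subunits from joining small ones too early. EIF6-2 (AT3G55620) had 140, 139, 140 and 152 CPM in ABA plus glucose seeds, 141, 150, 132 and 146 CPM in ABA seeds, 127, 126, 124 and 126 CPM in glucose seeds, and 143, 145, 161 and 155 CPM in control seeds. The 4 glucose libraries were the lowest of the 16, and the other groups overlapped. EIF6-2 fell with glucose by 0.26 (-0.38 to -0.14, adjusted p = 0.00487, edgeR). With ABA plus glucose it was higher than with glucose, by 0.18 (adjusted p = 0.0446, edgeR). In the eIF2 family that holds relatives of eIF5B, which joins the subunits, AT1G76820 was called higher with ABA at 0.30 (adjusted p = 0.0309, edgeR), at 17.1 ± 2.2 CPM in ABA and 13.9 ± 1.3 CPM in control seeds (SD, n = 4 each). Its libraries overlapped between those groups, it matches AT1G76720 at 93.7% over 3055 bases, and with the pair summed the change was 0.09 (adjusted p = 0.550, edgeR). The call held in 13 of 21 alternative fits and was lost without ABA replicate 1 or 3 or control replicate 2 or 3. The main gene of that class, AT1G76810, at a mean of 548 CPM, changed by -0.03 with ABA.

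The 9 elongation factor genes ran from a mean of 130 CPM in AT2G18110 to 6406 CPM in AT5G60390, the most abundant of all the factors by CPM, and none of the 9 was called in any of the 6 comparisons by edgeR, DESeq2 or limma. eEF1A brings each aminoacyl-tRNA to the ribosome, eEF1B reloads it with GTP, and eEF2 moves the ribosome on by a codon. AT5G60390, the main eEF1A gene, which overlaps AT5G60400 on the opposite strand, had 6860, 6470, 6977 and 6748 CPM in ABA plus glucose seeds, 6378, 6487, 4510 and 6347 CPM in ABA seeds, 6598, 6370, 6746 and 6348 CPM in glucose seeds, and 6542, 6188, 6470 and 6461 CPM in control seeds. LOS1 (AT1G56070), the eEF2 gene, had 2919, 2748, 2859 and 2932 CPM in ABA plus glucose seeds, 2652, 2788, 1836 and 2776 CPM in ABA seeds, 2896, 2935, 2888 and 2774 CPM in glucose seeds, and 2516, 2788, 2607 and 2708 CPM in control seeds. In both genes ABA replicate 3 was far below the other 15 libraries, which formed overlapping groups.

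All 9 elongation factor genes were at their lowest ABA value in ABA replicate 3, where they took 1.10% of the library's counts against 1.52% to 1.59% in the other ABA libraries. Over all genes tested 38.0% were at their lowest ABA value in that library. All 9 were also at their lowest ABA plus glucose value in replicate 2 of that group, where 28.3% of all genes tested were lowest. There they took 1.56% of the counts, so the size of the drop, not the shared low rank, set ABA replicate 3 apart. ABA plus glucose libraries gave 1.56% to 1.66%, glucose libraries 1.56% to 1.64% and control libraries 1.53% to 1.57%. The direction with ABA turned on ABA replicate 3: the median log2 change of the 9 genes against control was -0.08 with it, 8 of the 9 being negative, and 0.05 without it, 6 of the 9 being positive. None was called either way. The 4 eEF1A genes match each other closely, and their summed counts gave a log2 change of -0.10 with ABA (-0.27 to 0.06), 0.01 with glucose (-0.16 to 0.17) and 0.08 with ABA plus glucose (-0.09 to 0.24). Between ABA plus glucose and ABA the summed change was 0.18 (0.01 to 0.34, adjusted p = 0.272, edgeR). In that comparison 5 of the 9 genes had an unadjusted p under 0.05, and 1 had it without ABA replicate 3.

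**Figure D4:**
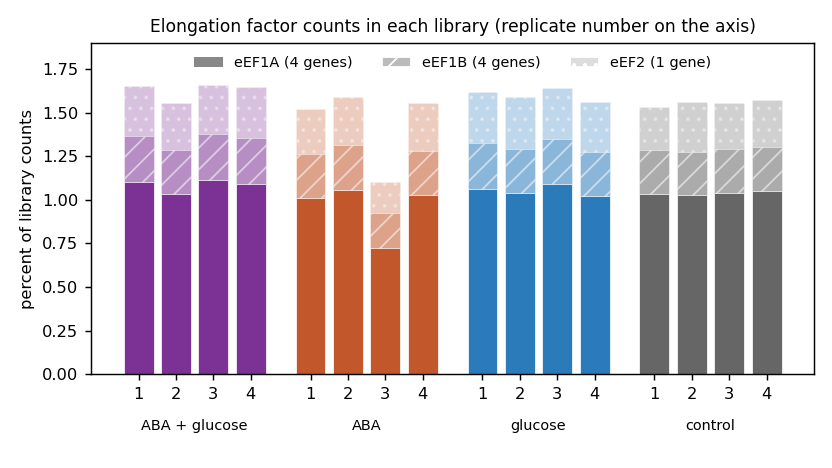
Percent of each library's counts (y axis, from 0) taken by the eEF1A, eEF1B and eEF2 genes, stacked, in the 16 libraries (x axis, replicate number within each group). ABA replicate 3, at 1.10% in total, stands below the other 15 libraries, which lie between 1.52% and 1.66%.

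**Figure D5:**
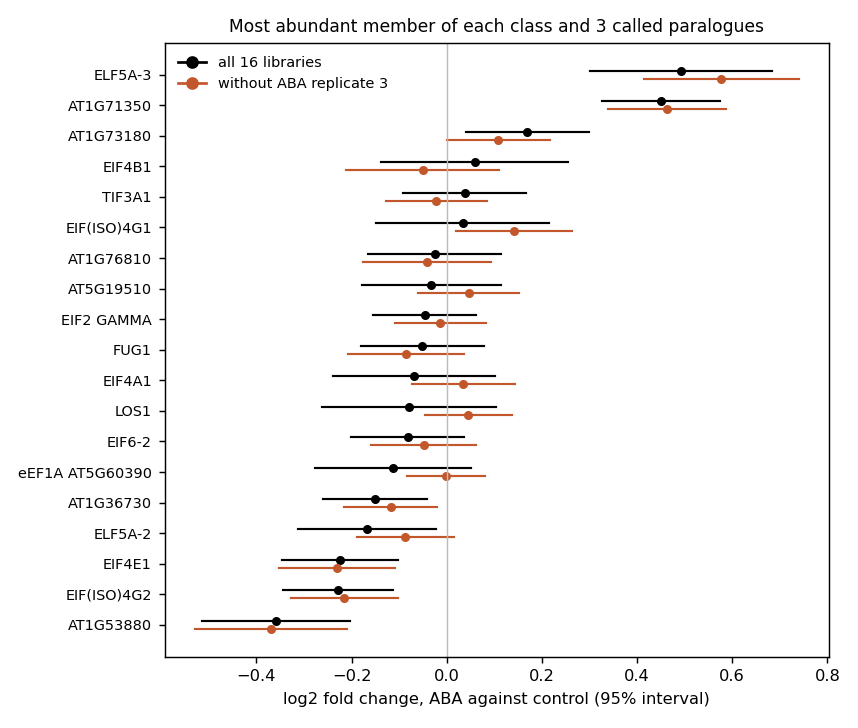
Log2 fold change with its 95% interval (x axis), ABA against control, for the most abundant tested gene of each factor class by CPM and 3 called paralogues, with all 16 libraries (black) and without ABA replicate 3 (orange). The intervals of LOS1, EIF4A1 and AT5G60390 include 0 both ways, while ELF5A-3 and AT1G71350 stay above 0 and EIF4E1, EIF(ISO)4G2 and AT1G53880 below 0.

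Another 5 factors are bacterial-type initiation factors of plastids and mitochondria, and none was called in any comparison by edgeR, DESeq2 or limma. By unadjusted p under 0.05 there were 2 with ABA plus glucose and 1 with glucose against control. FUG1, the plastid IF2, was the most abundant at a mean of 120 CPM and changed by -0.05 with ABA. The log2 changes of the 5 ran from -0.21 to -0.04 with ABA, from -0.28 to -0.06 with ABA plus glucose and from -0.29 to 0.04 with glucose. AT4G23330, the gene held in the list by a match note, was called higher with ABA plus glucose at 0.30 (adjusted p = 0.0233, edgeR), at 12.3 ± 1.1 CPM against 10.1 ± 0.96 CPM in control seeds (SD, n = 4 each). That call was lost with upper-quartile scaling and without ABA plus glucose replicate 3 or control replicate 3.

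Of the 7 factors that were not tested, AT2G27700 and AT3G02270 had 0 counts in all 16 libraries, which allows up to 0.169 to 0.320 CPM in a library (3 counts of its total, counting error only). TIF3C2, the second eIF3c gene, reached 0.166 CPM, EIF6-1 0.222 CPM, AT5G57650 0.0788 CPM and AT3G07920 0.405 CPM at most. ELF5A-1 is given with its family.

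Adding glucose to ABA changed few factors relative to ABA alone. A single factor was called, AT1G36730, which was higher, 1.56% of the tested factors against 4.40% of all genes (1.16% higher and 3.24% lower). By unadjusted p under 0.05 there were 12. AT1G36730 averaged 175 ± 3.9 CPM in ABA plus glucose and 153 ± 8.9 CPM in ABA seeds (SD, n = 4 each), with no overlap, a difference of 0.20 (0.09 to 0.30, adjusted p = 0.0322, edgeR). Among fits that left out 1 library of either group, it was called only without ABA replicate 2 or 3. Relative to glucose alone, ABA plus glucose had ELF5A-3 and EIF6-2 called higher and AT1G66070 lower, 4.69% against 11.8% of all genes (5.82% higher and 5.95% lower). The ELF5A-3 call was kept in 17, the EIF6-2 call in 7 and the AT1G66070 call in 15 of 22 alternative fits. Leaving out any 1 of the 8 libraries of these groups ended the EIF6-2 call. The ELF5A-3 call was lost without ABA plus glucose replicate 1, 3 or 4 or glucose replicate 1 or 4, and the AT1G66070 call without ABA plus glucose replicate 1, 3 or 4 or glucose replicate 2, 3 or 4.

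Whether glucose acted differently with ABA than without it was tested as an interaction, the log2 change of ABA plus glucose against ABA less that of glucose against control. It was called for 2 factors, 1 positive and 1 negative, 3.13% of those tested against 5.29% of all genes (3.23% positive and 2.07% negative). AT1G71350 had an interaction of -0.34 (-0.51 to -0.16, adjusted p = 0.0218, edgeR): its glucose effect was -0.13 with ABA and 0.21 without ABA. That call was lost without glucose replicate 3, the highest glucose library. AT1G77840 had an interaction of 0.31 (0.13 to 0.49, adjusted p = 0.0363, edgeR), its glucose effect being 0.16 with ABA and -0.16 without ABA. It was called in 13 of 29 alternative fits, and leaving out 1 library ended the call except for ABA replicate 3, glucose replicate 4 and control replicate 2. Neither gene was called between ABA plus glucose and ABA.

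Other genes of the translation apparatus were counted in the same fit. With ABA 2 of 191 tested cytosolic ribosomal protein genes were called higher and 39 lower, 21.5% of them. Of all genes 34.1% were called in either direction, 16.1% higher and 18% lower. The median log2 change of the ribosomal protein genes was -0.11, against -0.03 for the translation factors. Without ABA replicate 3 it was -0.07, against 0.00047 for the factors. With ABA plus glucose 2 were higher and 12 lower, 7.33% against 25.3% of all genes (11.2% higher and 14.1% lower). With glucose 11 were called, all lower, 5.76% against 11.3% in either direction and 7.49% lower. Of 52 tested aminoacyl-tRNA synthetases, which load tRNAs, 11 were called with ABA, all lower, 21.2% against 34.1% of all genes called in either direction and 18% called lower. With ABA plus glucose 6 were called, all lower, 11.5% against 25.3% in either direction and 14.1% lower. Of 25 tested initiation and elongation factors that the wording left out, 4 were called with ABA, all lower, 16% against the same 18% of all genes, among them TIF4A-3, another eIF4A gene, by 0.48 (adjusted p = 0.000239, edgeR). The difference between these lists and the 64 factors was not tested.

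Of 23 termination factors, poly(A)-binding proteins and regulators, 6 were called higher and 2 lower with ABA, 34.8% of them, close to the 34.1% of all genes. Without ABA replicate 3 there were 8 higher and 1 lower, beside 3025 higher and 3385 lower of 17258 genes tested. MRF1, for an eIF4A-binding protein regulated by the kinase TOR, averaged 423 ± 14 CPM in ABA plus glucose, 468 ± 40 CPM in ABA, 353 ± 20 CPM in glucose and 293 ± 5.8 CPM in control seeds (SD, n = 4 each). It rose by 0.68 with ABA (adjusted p = 1.07e-08, edgeR), 0.53 with ABA plus glucose and 0.27 with glucose. MRF4 rose by 0.62 (adjusted p = 0.00311, edgeR) and MRF3 by 0.28 with ABA, S6K2, for a ribosomal protein S6 kinase, by 0.43, RAPTOR1B, for a partner of TOR, by 0.34, and GCN2, the kinase that acts on eIF2, by 0.27. S6K1 fell with ABA by 0.39 (adjusted p = 0.000203, edgeR). RPS6A, for ribosomal protein S6, fell with ABA by 0.13 (adjusted p = 0.0485, edgeR), close to the limit. It is also counted among the ribosomal protein genes above. The kinase genes and their substrates are given here as transcripts, and no phosphorylation was measured.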

How the data were processed

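Per the labels, messenger RNA libraries were made with a KAPA mRNA kit and sequenced in paired ends. The submitters' processing notes name Trimmomatic 0.38, kallisto 0.44.0 and sleuth. Genome build, annotation and use of strand are not given in the sources used here. The authors deposited a table of estimated counts per gene, which its heading calls raw. 37 of the 71 factors have decimals in at least 1 library, so the values were rounded to whole numbers, where the design had named raw counts. A further 16 columns were not used here. The deposited length-scaled signal of each library, headed TPM, summed to between 945626 and 1037286, so its scaling is not known in full, and it served only for levels between genes.

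The test was edgeR 4.0.16's quasi-likelihood F-test (R 4.3.3) with TMM scaling, filterByExpr at a minimum count of 10 and 1 fit of 4 group means to the 16 libraries. Benjamini-Hochberg adjustment covered the 17083 genes tested in each comparison. Alternatives used DESeq2 1.42.0, limma 3.58.1 (on log2 of the signal + 0.5), other scalings, filters and left-out libraries. Intervals are 95% and approximate. In simulated counts for ABA against control, with 200 of 17083 genes changed, the test recovered 43.3% of genes changed 1.3-fold and 88.1% of those changed 2-fold. The changed genes were drawn from all levels and were a far smaller share than the 34.1% called in the data. The recovery therefore does not give the power for the factors. A count of 3 was 0.169 to 0.320 CPM, depending on the library. Such limits cover counting error only. Replicates differed by more than counting noise, with a chi-square per gene of at least 1.80.

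Members, lists and tests were chosen with earlier results of these data known. Genes are named by rule: the 4 largest called rises and falls of each pairwise comparison, every factor called in the interaction, and the most abundant gene of each class by CPM. EIF4E1, EIF(ISO)4G2 and further genes named to account for a class or list were chosen after their values were seen, as was the ACGTG motif. Coordinates and sequences are from RefSeq, TAIR10.1, in which all 71 loci were found. 20 of the 71 factors have a near copy, of at least 90% identity over at least 150 bases, and 16 overlap a gene on the opposite strand.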

Additional observations from a re-analysis of the deposited data

Results flagged for a closer look

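In 4 cases a value lay far from the other libraries of their group, by a gap test that chance passes in about 1 of 20 groups, with 96 groups looked at. AT5G60390 (eEF1A) had 4510 CPM in ABA replicate 3 against 6350 to 6490 CPM in the other ABA libraries. LOS1 (eEF2) had 1840 CPM in the same library against 2650 to 2790 CPM. AT1G71350 had 54.1 CPM in glucose replicate 3 against 49.2 to 49.7 CPM in the other glucose libraries. EIF6-2 had 152 CPM in ABA plus glucose replicate 4 against 139 to 140 CPM. By the test of the interaction, the change with glucose depended on ABA in AT1G77840 by 0.312 and in AT1G71350 by -0.335 on the log2 scale.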

How the results depend on the processing

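No result changed direction while it stayed called, and 187 of 254 alternative counts of called factors stayed within 1.5 times the count reported. The causes of the other moves were not tested. Upper-quartile scaling gave 3 higher and 5 lower with ABA plus glucose, 3 and 11 with ABA, 1 higher in ABA plus glucose against glucose and 2 positive interactions, and it moved the share of higher genes among all called with ABA to 34.9%, against 47.2%. Fitting only the groups compared gave 3 higher with ABA, 5 higher and 2 lower with glucose, 0 higher in ABA plus glucose against ABA, and 5 higher and 2 lower against glucose. Offsets for gene length and GC content, added after seeing the data like the other choices of TMM base library and the summed pairs, gave 5 lower with ABA plus glucose, 1 higher and 2 lower with glucose, 1 higher in ABA plus glucose against glucose and 2 positive interactions. With no filter there were 0 higher against ABA, 1 higher and 0 lower against glucose, and 0 positive interactions. In ABA plus glucose against glucose 1 was higher with library totals, with at least 10 counts in every library, with ABA plus glucose replicate 3 as TMM base and with the replicate block, where the blocked value differs from the 2 reported. DESeq2 gave 2 lower there and 2 positive interactions, glucose replicate 4 as TMM base 0 and limma 0. Without 1 library at a time, higher and lower counts ran from 3 to 5 and 1 to 3 with ABA plus glucose, 4 to 5 and 6 to 9 with ABA, 0 to 3 and 1 to 1 with glucose, 0 to 2 and 0 to 0 against ABA, 0 to 2 and 0 to 1 against glucose, and 0 to 1 and 0 to 1 for the interaction. Higher counts fell to 3 without ABA plus glucose replicate 3, control replicate 2 or control replicate 3 (ABA plus glucose), and to 0 without glucose replicate 3 (glucose). No pairing of libraries by replicate number was seen. Same-numbered libraries correlated at -0.155 to 0.113 in their deviations, and 3 of 16 correlated best with their own number. Such correlations cannot exclude a shared batch. Called in every alternative were 9 of the 12 calls with ABA, 3 of 7 with ABA plus glucose and 1 of 4 with glucose. For ABA plus glucose it was 0 of 1 against ABA and 0 of 3 against glucose, and for the interaction 0 of 2.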
